A study of Mus musculus with 14 samples.

Results

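Among the 145840 H3K4me1 peaks of mouse embryonic stem cells (ESCs), 16945 (11.6%) were called for H3K4me1 and not for H3K27ac both before and after differentiation with retinoic acid. They are called here the regions that stayed primed. They were chosen by peak calls: an H3K4me1 peak of ESCs was kept when it shared at least 1 bp with an H3K4me1 peak of differentiated cells and no base with an H3K27ac peak of either state. H3K4me1 and H3K27ac counts in ESCs and differentiated cells therefore chose these regions and are given as a description. DNA methylation (5mC) and all values from XEN cells took no part in the choice. Nor did distance from transcription start sites, so regions at promoters may be among them.

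Enhancers are distal regulatory DNA that raises transcription of target genes. H3K4me1 marks enhancers broadly, while H3K27ac is laid down by the acetyltransferases CBP and its paralogue at enhancers in use, so an enhancer with H3K4me1 alone is commonly called primed. CpGs in enhancers are often partly methylated, and unmethylated regions (UMRs, under 20% 5mC) are distinguished from low-methylated regions (LMRs, 20 to 80% 5mC).

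The cells were R1 mouse ESCs after 2 days without 2i (inhibitors of MEK and GSK3), the same line after 4 days in 1 µM retinoic acid (differentiated cells), and XEN cells, an extra-embryonic endoderm state, obtained over 9 days in RPMI-based medium with 0.1 µM retinoic acid and Activin A. XEN and differentiated cells thus differ in medium, Activin A, dose and time. Titles of the XEN samples also end in PE, which the other titles do not, so library or processing may differ too. All cells came from this 1 line. DNA bound by each mark was immunoprecipitated and then bisulfite treated (ChIP-BS-seq), so 5mC was read in DNA enriched for the mark. Such libraries also hold background: of 32588942 H3K27ac counts of ESCs, 6890448 lay outside the peaks of both marks in ESCs and differentiated cells. Since these regions have no H3K27ac peak, how much of their 5mC in H3K27ac libraries comes from acetylated DNA was not tested. There was 1 library per mark in ESCs and in differentiated cells, and 2 replicates per mark in XEN cells. Whether a library of ESCs or differentiated cells pools repeats is not known, so tests between those libraries compare libraries and carry no spread between cultures. The libraries held between 12147115 and 58803653 CpG counts, the smallest being those labelled H3K4me1 in XEN cells. File names and sample labels contradict each other on the mark of every XEN library. The labels were followed, and each XEN library is named by its label. XEN files list only 200-bp bins with at least 4 CpG counts, so DNA outside listed bins was not seen there.

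Peaks of the regions that stayed primed were narrower and lower in score than all peaks together, as were those of other primed classes. Their median width was 1535 bp (quartiles 1000 and 2254 bp, longest 12560 bp), against 1851 bp for all H3K4me1 peaks of ESCs. The median peak score was 16.2 against 22.3 for all peaks. The primed regions acetylated after retinoic acid had medians of 1561 bp and 16.7, and those with H3K4me1 in ESCs only 1261 bp and 12.2. The regions that stayed primed covered 31.8 Mb. H3K4me1 peaks of differentiated cells covered a median of 70.0% of a region, and 11989 regions (70.8%) were covered over 50% or more of their length. The nearest H3K27ac peak of either state lay at a median of 4033 bp (quartiles 1465 and 10453 bp), with 6351 regions (37.5%) within 2500 bp of one and 4408 (26.0%) farther than 10 kb. On the X chromosome lay 514 regions (3.03%), where 2.59% of all H3K4me1 peaks of ESCs lay.

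At the edge of the rule, membership rested on single bases. The members with the least overlap, chr1:140975203-140976488 and chr10:20687619-20688618 (mm9), shared 1 bp with an H3K4me1 peak of differentiated cells. Their H3K4me1 counts were 91 and 117 in ESCs and 16 and 23 in differentiated cells. Just outside, chr1:36674890-36676424 and chr1:153763448-153764447 shared 1 bp with an H3K27ac peak of differentiated cells, with 27 and 44 H3K27ac counts there.

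By the counts that chose them, the regions held 92.7 H3K4me1 CpG counts per kb in ESCs and 56.8 in differentiated cells. H3K27ac gave 16.4 and 13.9 counts per kb. Scaled to 1000000 counts per library, H3K4me1 was 1.58 per kb in ESCs and 1.20 in differentiated cells, and H3K27ac 0.503 and 0.430. H3K27ac was thus low but above its level outside the peaks of both marks, at 0.112 and 0.101. At the centre of the regions H3K27ac reached 0.118 counts per 200-bp bin and 1000000 library counts in ESCs, against 0.0554 and 0.0552 at 1600 bp to either side, and 0.103 against 0.0562 and 0.0565 in differentiated cells. At 4000 bp to either side, where neighbouring peaks are included, H3K27ac stood at 0.0868 and 0.0870 in ESCs. In differentiated cells it was 0.0970 and 0.0944 there, near the centre value. The lack of an H3K27ac peak is therefore not a lack of H3K27ac counts. H3K4me1 was lower in differentiated cells at 10362 of the 16922 regions with counts in both (61.2%), with a median log2 ratio of -0.25 (quartiles -0.83 and 0.33). Over all H3K4me1 peaks of ESCs the level also went from 1.76 to 1.30 per kb, the ratio was below 0 at 72.9% and its median was -0.93, so a lower level was no trait of these regions.

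In XEN cells, which the rule did not use, the libraries labelled H3K27ac held 23.8 and 33.1 CpG counts per kb in these regions. Those labelled H3K4me1 held 4.64 and 7.11. Per 1000000 counts in the library the values were 1.05 and 1.06 for the label H3K27ac against 0.382 and 0.453 for the label H3K4me1. The replicates of a label thus lay closer to each other than to those of the other label. At the centre of the regions the libraries labelled H3K27ac reached 0.271 counts per bin and 1000000 library counts in both replicates, and between 0.0906 and 0.0978 at 1600 bp to either side. Those labelled H3K4me1 reached 0.100 and 0.116 at the centre and between 0.0484 and 0.0568 at 1600 bp. At 4000 bp to either side they stood between 0.0851 and 0.0918, and those labelled H3K27ac between 0.113 and 0.116.

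**Figure D1:**
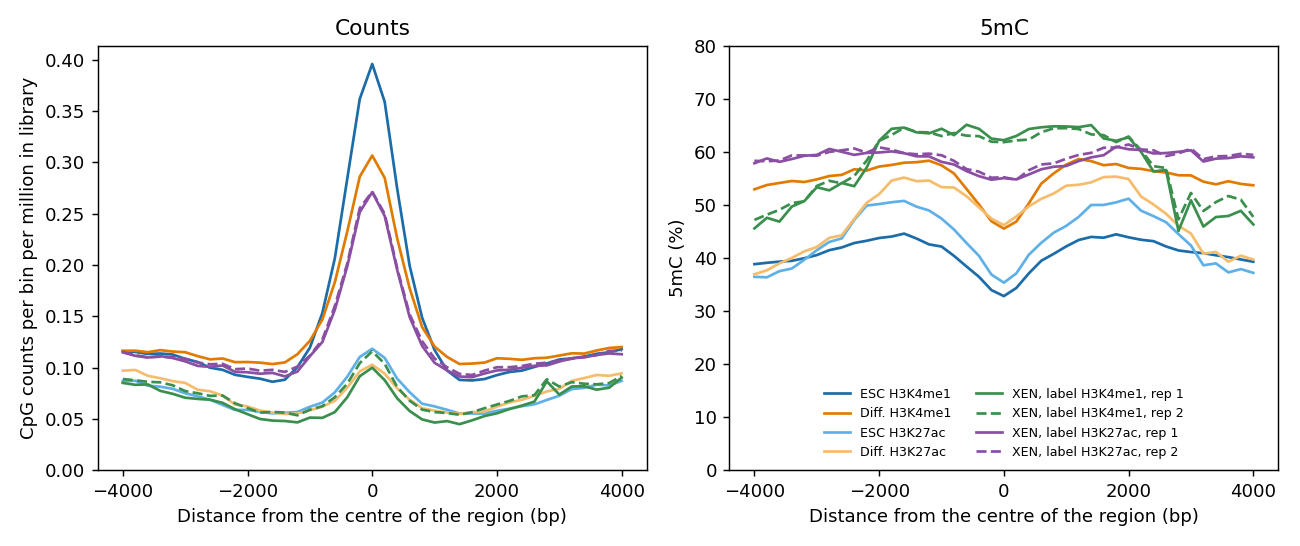
CpG counts per 200-bp bin and 1000000 counts in the library (left) and 5mC (right) against distance from the centre of the regions that stayed primed, for each of the 8 libraries (dashed lines, second XEN replicate). H3K4me1 of ESCs, at 0.396 counts, had the highest centre, and 5mC dipped at the centre in ESCs (32.8% for H3K4me1) and in differentiated cells (45.6%).

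In ESCs and differentiated cells DNA methylation was lower in the middle of these regions than at 1600 bp to either side. In the H3K4me1 library of ESCs it was 32.8% at the centre and 44.6 and 43.8% at 1600 bp to either side. In differentiated cells it was 45.6% at the centre and 58.0 and 57.5% at 1600 bp. The H3K27ac libraries, with few counts here, had the same shape, from 35.4% at the centre to 50.8 and 50.0% in ESCs and from 46.2% to 55.2 and 55.3% in differentiated cells. Farther out, at 4000 bp to either side, 5mC in H3K27ac was 36.5 and 37.2% in ESCs and 37.0 and 39.7% in differentiated cells, where neighbouring peaks are included. In XEN cells the dip of the libraries labelled H3K27ac was shallower, at 55.1 and 55.2% in the centre and between 59.4 and 60.8% at 1600 bp. Those labelled H3K4me1 stood at 62.2 and 61.9% in the centre and between 62.6 and 64.6% at 1600 bp, and fell to between 45.6 and 47.8% at 4000 bp.

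Pooled over all regions, 36.1% of H3K4me1 counts were methylated in ESCs and 49.4% in differentiated cells. In H3K27ac libraries the values were 39.7 and 49.8%. In XEN cells 5mC was 55.1 and 55.6% in the libraries labelled H3K27ac and 63.8 and 62.9% in those labelled H3K4me1. Exact 95% (Clopper-Pearson) intervals reached at most from 63.6 to 64.1%, for the smallest library, and describe counting error alone, because neither CpGs on 1 read nor PCR copies are independent. For all H3K4me1 peaks of ESCs the H3K4me1 libraries were close to these values, at 34.9 and 50.6%, but H3K27ac was lower, at 25.4% in ESCs and 34.6% in differentiated cells.

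**Figure D2:**
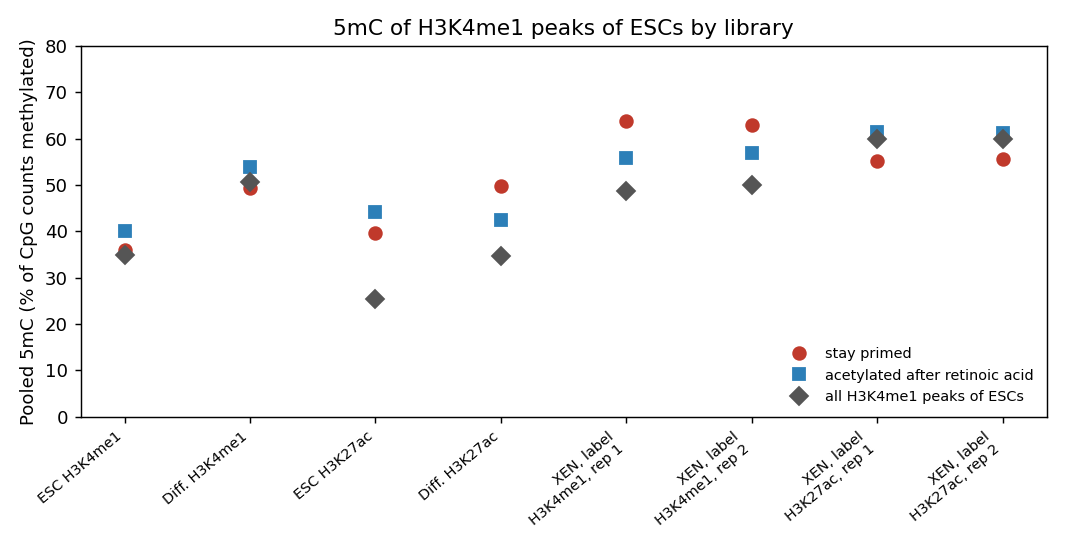
Pooled 5mC (methylated share of all CpG counts, in percent) of each of the 8 libraries over the regions that stayed primed (circles), those acetylated after retinoic acid (squares) and all H3K4me1 peaks of ESCs (diamonds). In H3K27ac of ESCs the regions that stayed primed were at 39.7% and all peaks at 25.4%, while in H3K4me1 of ESCs they were at 36.1 and 34.9%.

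While H3K4me1 was kept, 5mC was higher in differentiated cells than in ESCs at most regions. Regions with 30 or more CpG counts in each H3K4me1 library, 14115 in all, were tested. The median 5mC change was 12.1 percentage points (quartiles 4.51 and 19.7), and 12062 regions (85.5%) were higher in differentiated cells. By Fisher's exact test, adjusted by the Benjamini-Hochberg method over all 95012 peaks tested, 6017 regions (42.6%) were called higher, against 57.9% of all peaks, and 184 (1.30%) were called lower, against 1.64%. Fisher's exact test treats CpG counts as independent, which CpGs on 1 read and PCR copies are not. Its p-values, here and below, are therefore likely too small and its calls too many. The median change over all peaks was 14.7 points. A gain of over 20 points was seen at 3440 regions (24.4%) and at 32.0% of all peaks tested.

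The share of calls follows depth, and these regions were shallower than all peaks together, with a median of 109 CpG counts in ESCs against 141. The median was also 109 in primed regions acetylated after retinoic acid, and 79 in those with H3K4me1 in ESCs only. The comparison was therefore repeated at like depth, a step chosen after the values were seen. With 100 to 200 counts in both libraries, 43.1% of 1707 regions were called higher, against 49.5% of all 6145 peaks of that depth, and the median change was 11.0 against 12.2 points. With 200 to 400 counts the shares were 61.2% of 655 regions and 68.5% of all 6467 peaks. With 30 to 100 counts they were 22.8% of 4338 and 26.6% of 12788. In each depth class the share among primed regions acetylated after retinoic acid was higher, at 34.3, 57.6 and 74.7%, with median changes of 15.2, 15.3 and 14.9 points. In regions that lost H3K27ac and kept H3K4me1 the values were close to those of the regions that stayed primed, with shares of 22.4, 43.4 and 61.7% and median changes of 10.3, 10.7 and 10.2 points, against 11.2, 11.0 and 10.7. These shares carry no test of the difference between classes.

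**Figure D3:**
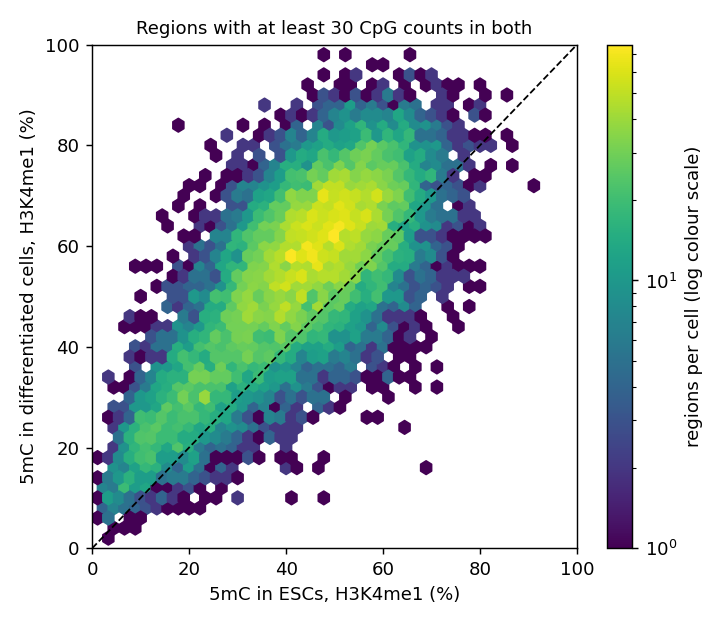
5mC of each tested region in the H3K4me1 library of ESCs (horizontal, percent) and of differentiated cells (vertical, percent), with colour giving the number of regions on a log scale and the dashed line equal values. Of the 14115 regions, 12062 lie above the line, with a median gain of 12.1 points.

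With 5mC pooled over the whole region and not per 200-bp bin, most of the regions were LMRs in ESCs, as were most H3K4me1 peaks. By their H3K4me1 5mC, 1387 of those tested (9.83%) were under 20%, 12714 (90.1%) were between 20 and 80%, and 14 were above 80%. With 30 counts required in ESCs alone, 9.07% were under 20%, against 8.01% of all peaks. The regions under 20% were wider, with a median of 2028 bp against 1587 bp, and held more H3K4me1 in ESCs, at 178 against 89.9 counts per kb. They also held more counts in the XEN libraries labelled H3K27ac, at 47.3 and 60.2 per kb against 23.3 and 33.0. In those labelled H3K4me1 the order was the other way, at 3.28 and 5.44 per kb against 5.20 and 7.89.

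Of the 1387 regions under 20% in ESCs, 434 (31.3%) were still under 20% in differentiated cells and 396 (28.6%) were above 30%. Both sets were chosen by their H3K4me1 5mC, so those values are a description. The sets stood apart already in ESCs, with a median H3K4me1 5mC of 9.92 and 16.9% and a pooled 5mC in H3K27ac of 6.38 and 12.9%. In the H3K27ac libraries of differentiated cells, not used for that choice, pooled 5mC was 11.1% in the set that stayed low and 23.2% in the set above 30%. In the XEN libraries labelled H3K27ac it was 19.9 and 20.8% in the set that stayed low and 42.9 and 43.0% in the set above 30%. The 2 sets had a similar width, with medians of 2006.5 and 2034.5 bp, but the set that stayed low was deeper, with a median of 340.5 against 305 H3K4me1 counts in ESCs and 215 against 166 in differentiated cells. The part of depth in the difference was not tested. On the X chromosome lay 3.23% of the set that stayed low and 7.58% of the set above 30%. Of 7092 regions with at least 30 counts in H3K4me1 of ESCs and differentiated cells and in both XEN libraries labelled H3K27ac, 162 (2.28%) were under 20% in all 4.

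Regions are named by rules on size of change, depth and ratio among the 5553 members with at least 100 H3K4me1 counts in both states, outside chromosome 18. Positions are mm9, and no gene annotation of that build was used here, so no gene is given. The largest rise was at chr14:46841193-46846275, from 34.2% 5mC of 480 counts in ESCs to 80% of 105 in differentiated cells (Fisher's exact test, adjusted p = 6.20e-17). In H3K27ac libraries the same region had 34.0% of 53 counts and 73.8% of 42. At chr7:77481717-77483848 5mC rose from 11.4 to 57.0% (adjusted p = 3.30e-22), and H3K27ac had 6.98 and 47.4%. At chr8:60047523-60049097 it rose from 38.4 to 82.4% (adjusted p = 1.86e-14), but in H3K27ac it was 72.0% of 25 counts in ESCs and 69.0% of 29 in differentiated cells. At the first and second of these, 5mC in H3K27ac was also higher in differentiated cells, and at the third it was not, at counts under 30.

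Falls of over 20 points were seen at 80 tested regions (0.567%), near the 0.607% of all peaks. The largest was at chr7:54404030-54406629, from 41.7% of 187 counts in ESCs to 10.3% of 107 in differentiated cells (Fisher's exact test, adjusted p = 2.34e-08). It was followed by chr4:47461953-47463877, from 47.7 to 17.6% (adjusted p = 1.16e-10), and chr4:11331178-11333352, from 64.9 to 37.4% (adjusted p = 1.25e-06). In the XEN libraries labelled H3K27ac these 3 regions stood at 27.3 and 23.3%, at 44.1 and 27.1%, and at 40.4 and 50.9%. The first and second were thus nearer their ESC level in the first XEN replicate and nearer the differentiated level in the other, on 11 and 43 counts and on 59 and 48 counts.

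The deepest regions were wide and little methylated. At chr11:84335233-84343769, 8537 bp long, 5mC was 5.25% of 2798 counts in ESCs and 22.5% of 1464 in differentiated cells (Fisher's exact test, adjusted p = 3.30e-59). At chr7:144506230-144514491 it was 3.40 and 11.5% (adjusted p = 1.45e-22), and at chr5:108149239-108156869 it was 4.99 and 18.5% (adjusted p = 3.48e-42). XEN libraries labelled H3K27ac gave 31.1 and 27.2%, 16.6 and 15.2%, and 33.5 and 31.3% at these regions, above the ESC value in each case. Those labelled H3K4me1 gave 13.0 and 18.2% on 161 and 181 counts at the first, 45.2 and 11.1% on 31 and 18 counts at the second, and 14.0 and 21.3% on 43 and 47 counts at the third. At the first and the third the label H3K4me1 was thus the lower one, the other way from the pooled values. They lay 7084, 3710 and 15442 bp from the nearest H3K27ac peak.

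The smallest changes occurred at very different levels of methylation. At chr9:121577661-121580821 5mC was 26.8% in both states, at chr11:44776083-44777604 it was 64.6 and 64.7%, and at chr10:59587712-59590313 it was 38.1% in both. The last of these stood at 65.2 and 72.5% in the XEN libraries labelled H3K27ac, on 69 and 40 counts.

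**Figure D4:**
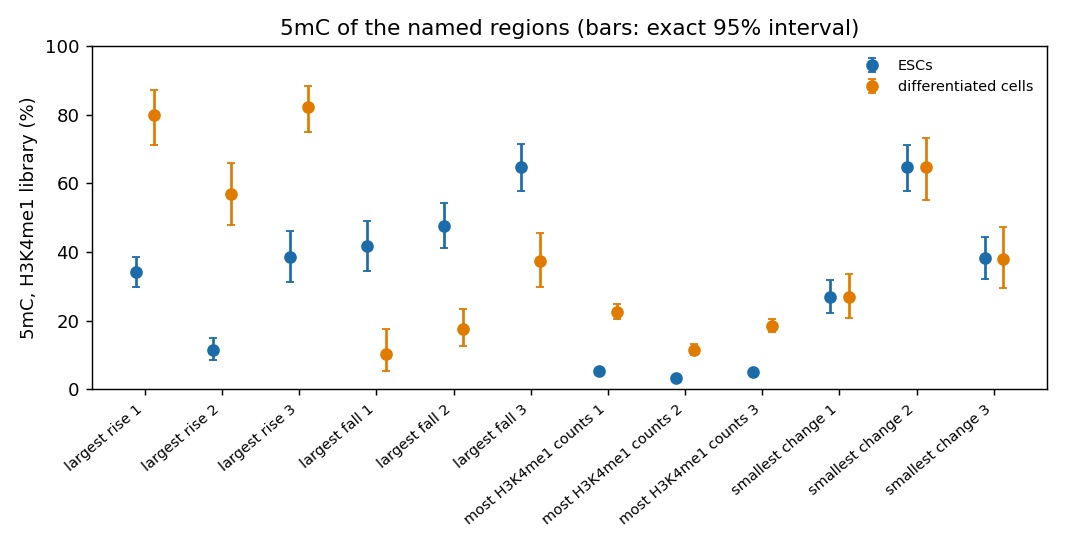
5mC in H3K4me1 libraries of ESCs and of differentiated cells for the 12 regions named by their change or depth, with exact 95% intervals that cover counting error only. The intervals of the states do not overlap in the first 9 regions, and the last 3 were chosen for the smallest change, from 26.8 to 26.8% in the first of them.

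Regions near H3K27ac peaks were more methylated than distant ones. Within 2500 bp of such a peak, the median H3K4me1 5mC was 47.7% in ESCs and 62.0% in differentiated cells over 5166 tested regions. Between 2500 bp and 10 kb it was 43.9 and 56.6% over 5258 regions, and beyond 10 kb 38.6 and 48.8% over 3691. The median change had the same order, at 13.8, 12.1 and 9.67 points, and the share called higher was 45.7, 43.5 and 37.2%. Median depth went the other way, at 121, 138 and 146 counts in ESCs. No test was made of these differences between distances.

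The median 5mC of regions on the X chromosome was 37.5% in ESCs and 54.7% in differentiated cells (355 tested), and those on autosomes 44.1 and 56.8% (13759 tested). Within regions, 10791 single 200-bp bins reached 30 counts in both H3K4me1 libraries, and their median 5mC was 20.0% in ESCs and 34.9% in differentiated cells. These bins were less methylated than the regions as a whole. Of 2555 regions with at least 2 such bins, 599 (23.4%) held both a bin under 20% and one above 30% in ESCs, and 788 (30.8%) did in differentiated cells.

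Between the libraries of the 2 marks, a smaller share of these regions than of all peaks was called higher in H3K4me1. In ESCs 6124 regions had at least 30 counts in both libraries, and the median difference, H3K4me1 minus H3K27ac, was -1.24 points. H3K4me1 was called higher at 327 (5.34%), against 23.0% of all peaks tested, and lower at 242 (3.95%), against 3.59% (Fisher's exact test, adjusted). In differentiated cells 5242 regions were tested, with a median difference of 3.79 points. H3K4me1 was called higher at 545 (10.4%), against 31.6%, and lower at 118 (2.25%), against 1.49%. H3K27ac depth limits these counts, since the rule chose regions without an H3K27ac peak. With at least 60 counts in both, 14.1% of 1944 regions were called higher in ESCs, against 36.3% of all peaks with that minimum, and 28.3% of 1208 in differentiated cells, against 46.8%. This does not match depth, since all peaks were deeper in H3K27ac, with an upper quartile of 107 counts in ESCs against 38.

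In XEN cells 5mC was above that of ESCs at most regions tested. A region was called when both XEN replicates passed in the same direction, each by Fisher's exact test with adjustment. For the libraries labelled H3K4me1, 710 regions (4.19%) had 30 counts in the 3 libraries. Of these, 366 (51.5%) were higher than in H3K4me1 of ESCs, against 51.1% of all peaks tested, and 4 (0.563%) were lower, against 11.3%. The median difference was 22.2 points, against 17.8 over all peaks. Against differentiated cells, 52 of 704 (7.39%) were higher, against 11.2%, and 12 (1.70%) were lower, against 19.4%. The median difference there was 6.12 points, against 1.32 over all peaks. With at least 60 counts, 80 of 100 regions (80%) were higher than ESCs, against 53.9% of all peaks with that minimum. Against differentiated cells 18 of 97 (18.6%) were then higher, against 15.3%, the other order from that with 30. With 1 XEN replicate required in place of both, at 30 counts, between 554 and 1198 regions were higher than ESCs. Between 138 and 301 were higher than differentiated cells. More regions then reach 30 counts and 1 test has to pass in place of 2. For ESCs the shares were 59.6 and 59.3%, against 55.8 and 58.5% of all peaks. For differentiated cells they were 14.9 and 15.0%, against 15.9 and 17.4%.

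The libraries labelled H3K27ac gave 30 counts at more of the regions, and a comparison with them was added after that was seen. Of 7143 regions, 3575 (50.0%) were higher than in H3K4me1 of ESCs, against 67.7% of all peaks, and 27 (0.378%) were lower, against 0.851%. The median difference was 17.5 points, against 21.6 over all peaks. Of 7150 regions, 569 (7.96%) were higher than in H3K4me1 of differentiated cells, against 23.2%, and 23 (0.322%) were lower, against 0.353%. The median difference there was 5.68 points, against 7.27 over all peaks. With 1 replicate alone the counts were between 4292 and 5474 and between 1036 and 1325 higher. As shares, 58.1 and 58.0% were higher than ESCs, against 72.5 and 72.8% of all peaks. For differentiated cells the shares were 14.0 and 14.0%, against 30.3 and 29.5%. Over the 7092 regions covered in all 4 libraries, the median 5mC was 41.4% in ESCs, 54.1% in differentiated cells and 60.9 and 60.6% in XEN cells. If the marks follow the file names and not the labels, this last comparison is the one within H3K4me1.

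The XEN labels differed in count at many of these regions. By edgeR's quasi-likelihood test on CpG counts, with Benjamini-Hochberg adjustment over 94888 peaks, 12126 regions were tested. Of these, 2954 (24.4%) had more counts in the libraries labelled H3K27ac, against 17.0% of all peaks tested, and 201 (1.66%) had fewer, against 17.4%. The median log2 ratio was 0.98 (quartiles 0.06 and 2.02), against 0.07 over all peaks, and 9246 regions (76.2%) were above 0. With library totals in place of TMM the medians were 1.32 and 0.41, so scaling moved both alike. The ratio was higher farther from H3K27ac peaks, with medians of 0.68 within 2500 bp, 1.00 between 2500 bp and 10 kb, and 1.45 beyond 10 kb. Among primed regions acetylated after retinoic acid, 26.2% had more counts in the label H3K27ac and 4.41% fewer, with a median ratio of 0.58. In regions that lost H3K27ac and kept H3K4me1 the values were 20.7%, 4.15% and 0.56. In those with H3K4me1 in ESCs only they were 7.29%, 14.6% and -0.54.

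These counts depended on the bins and libraries used. At 812 tested regions no bin was listed in either library labelled H3K4me1, and all 812 were called higher. The same held for all 1985 such peaks among all those tested. Without regions that a label lists at 0, the median of the remaining 11282 was 0.87, with 19.0% called higher and 1.5% lower. For all peaks on the same terms the median was 0.06, with 15.5% higher and 16.2% lower. With bins listed in all 4 files alone, 3952 regions were tested, 872 (22.1%) were higher, 230 (5.82%) were lower and the median was 0.33. All peaks had 20.8% higher, 23.1% lower and a median of -0.000997, so the share of higher calls was then near that of all peaks. Higher calls then made up 79.1% of calls, against 93.6% with all bins. Leaving out a library gave 895 or 1076 higher calls without the first or second replicate labelled H3K27ac, and 4327 or 5262 without the first or second labelled H3K4me1. As shares these were 6.94 and 8.73%, against 5.72 and 7.13% of all peaks, and 31.0 and 38.1%, against 20.8 and 24.6%.

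**Figure D5:**
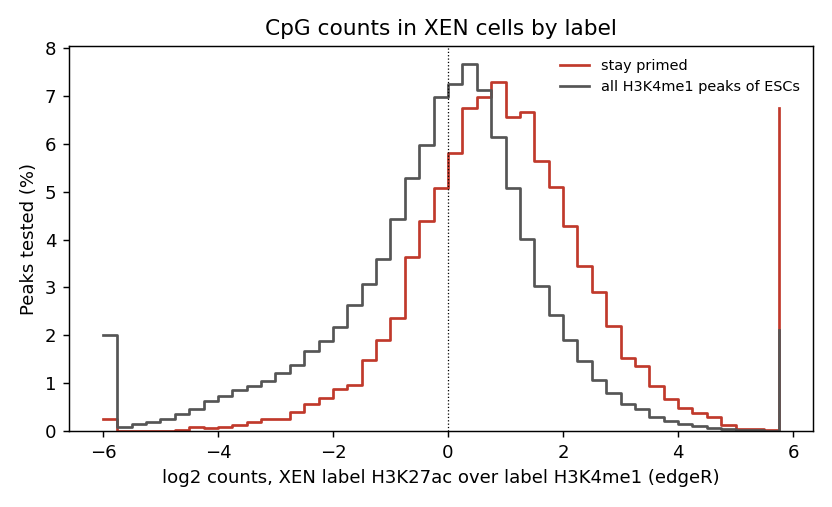
Log2 ratio of CpG counts in XEN cells, label H3K27ac over label H3K4me1 as fitted by edgeR, for the regions that stayed primed and for all H3K4me1 peaks of ESCs tested, as percent of peaks per step. Values beyond 6 in either direction are put in the outermost step, where the regions listed at 0 in a label fall, and the medians are 0.98 and 0.07.

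Single regions gave the ends of that range, among 1975 called members with at least 100 H3K4me1 counts in ESCs and differentiated cells. At chr11:103994090-103996107 the libraries labelled H3K27ac held 333 and 349 counts, and those labelled H3K4me1 listed none (edgeR, adjusted p = 0.00101). 5mC there was 4.70% in ESCs, 12.4% in differentiated cells and 10.5 and 10.9% in XEN cells. At chr7:89002323-89005575 there were 244 and 274 counts against none listed (adjusted p = 0.00120), with 5mC of 21.3, 34.0 and, in XEN cells, 20.5 and 29.6%. At the other end, chr3:128338721-128340745 had 25 and 19 counts in the libraries labelled H3K4me1 and none listed in the others (adjusted p = 0.0102). At chr13:114724118-114725670 there were 15 and 24 counts against 0 and 5 (adjusted p = 0.0428).

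Pooled over the regions, 5mC in XEN cells was 63.4% ± 0.648 (SD, n = 2) in the libraries labelled H3K4me1 and 55.4% ± 0.396 (SD, n = 2) in those labelled H3K27ac. The difference of 8.03 points was larger than the spread of either pair, but an exact two-sided permutation test of 2 against 2 gave p = 0.333, the smallest it can give. The difference did not hold in the same bins. With the bins listed in all 4 XEN files, a comparison added after the values were seen, the label H3K4me1 was higher by 0.491 points, with 62.8 and 63.1% against 62.6 and 62.3%. Those bins held 46.2 and 35.1% of the regions' counts in the libraries labelled H3K4me1 and 23.8 and 22.1% in those labelled H3K27ac. Over all H3K4me1 peaks of ESCs the same bins gave a difference of -13.0 points in XEN cells, 12.4 in ESCs and 19.6 in differentiated cells. With all listed bins, XEN 5mC over all peaks was 49.4% for the label H3K4me1 and 59.9% for the label H3K27ac.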

How the data were processed

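ChIP-BS-seq of H3K4me1 and H3K27ac was analysed in ESCs, differentiated cells and XEN cells. The authors used Bismark with Bowtie for alignment and left out reads whose CpGs disagreed in state. The deposited values are raw CpG counts in 200-bp bins, methylated and unmethylated apart (mm9, from the submitters' processing notes). The deposited HOMER peak lists carry a score per peak. Tool versions are not given in the sources used here.

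Counts of all bins overlapping a peak by at least 1 bp were summed per library. The column order is reversed in XEN files. Peaks needed 30 counts in each library compared. Fisher's exact test (two-sided) and edgeR (TMM, filterByExpr) were adjusted by Benjamini-Hochberg at 0.05 over all H3K4me1 peaks of ESCs, and both were tested on simulated data, where neither called every change that had been put in, so a region without a call is not shown to be unchanged. Regions were named by fixed rules: the 3 largest rises, falls and depths, the 3 smallest changes, and the 2 highest and 2 lowest XEN ratios among called regions. The members, rules and lists were chosen with earlier results of these data known, and the bands of 20, 30 and 80% 5mC were applied after values were seen. Separate cultures are not stated for XEN replicates, so p-values may measure technical spread. Alternatives were coverage minimums of 20 and 60, other bins, stricter membership, DESeq2, other scaling or filters, and leaving out replicates. Input, H3K36me and single-cell samples were not analysed here, nor were gene lists, as no mm9 annotation was used. Tools were edgeR 4.0.16, DESeq2 1.42.0, scipy 1.17.1, numpy 2.4.6, numba 0.67.0, pandas 2.3.3, matplotlib 3.10.9 and Python 3.11.15.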

Additional observations from a re-analysis of the deposited data

Results flagged for a closer look

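By the sample labels, the sign of the pooled difference between marks was not shared between cell states. Pooled over the regions that stayed primed, the label H3K4me1 was above the label H3K27ac by 8.03 points in XEN cells, in every pairing of the replicates, and below it by the same measure in ESCs (-3.65 points) and in differentiated cells (-0.385 points). Calls per region by Fisher's exact test ran against the pooled sign in both: in ESCs 327 were higher and 242 lower, with a median difference of -1.24 points. In differentiated cells per region the median difference was 3.79 points, H3K4me1 was above H3K27ac at 62.7% of those tested, and 545 were called higher and 118 lower. The XEN difference thus lay 11.7 points above that of ESCs and 8.41 points above that of differentiated cells. The difference between states was not tested, since ESCs and differentiated cells have 1 library per mark. In the bins listed in all 4 XEN files the differences were 0.491 points in XEN cells, -2.37 in ESCs and 3.86 in differentiated cells, so the contrast with differentiated cells turned direction and that with ESCs became smaller. If XEN marks follow the file names, the XEN difference is -8.03 points, of the same sign as the others, which differs from that of ESCs by -4.37 points and from that of differentiated cells by -7.64, and the contrast in sign is gone. Over all H3K4me1 peaks of ESCs, bins listed in all 4 XEN files gave -13.0 points in XEN cells by label. In ESCs and differentiated cells they gave 12.4 and 19.6 points. Which order of the XEN marks is right was not tested.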

How the results depend on the processing

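Of the alternatives tried, 64 values stayed within their limits (1.5 times for a count, the replicate SD or the 95% interval for a value) and 90 moved beyond them, and neither the median 5mC change from ESCs to differentiated cells nor the pooled XEN difference changed direction. The pooled difference between marks in differentiated cells did, from -0.385 to 3.86 points in bins listed in all 4 XEN files, an alternative added after the data were seen. Many moved counts are of stricter sets that hold fewer regions by construction. For the others the cause was not tested.

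Requiring scores at or above the median of their list left 2053 regions. For H3K4me1 in differentiated cells against ESCs, 1296 were then higher and 27 lower, with a median change of 14.0 points. The share higher, 64.5%, was above the 57.9% of all peaks, the other way from 42.6% without the limit, but below the 75.2% of all peaks under the same score limits, a background chosen after the data were seen. H3K4me1 against H3K27ac gave 66 higher (4.69%) and 63 lower (4.48%) in ESCs, against 39.95 and 3.16% of all peaks under the same limits. After differentiation it gave 173 higher (13.2%) and 32 lower (2.44%), against 46.39 and 1.38%. The XEN label H3K4me1 gave 129 higher (59.7%) and 0 lower than ESCs, against 51.8 and 12.8% under the same limits. For differentiated cells it gave 23 (10.6%) and 3 (1.39%), against 13.1 and 23.1%. The label H3K27ac gave 993 and 5, and 202 and 7. The 993 are 67.5%, close to the 67.7% of all peaks and below the 79.7% under the same limits. The 202 are 13.7%, below the 33.9% under those limits. XEN counts gave 729 higher (39.3%) and 35 lower (1.89%), against 17.0 and 17.4% of all peaks without the score limits. Pooled XEN 5mC differed by 8.81 points. The 0 is from Fisher's exact test, where 0 of the 216 tested were lower also at an unadjusted p under 0.05 in both replicates. Excluding H3K27ac within 2500 bp left 10594 regions. In the rest of this paragraph, brackets hold the share of regions tested and then that of all peaks without such limits. For H3K4me1, 3657 were higher (40.9 and 57.9%) and 118 lower (1.32 and 1.64%), with a median of 11.2 points. The marks then gave 144 lower in ESCs (3.65 and 3.59%) and 77 in differentiated cells (2.36 and 1.49%). The XEN label H3K4me1 gave 166 higher (48.1 and 51.1%) and 1 lower (0.290 and 11.3%) than ESCs. Against differentiated cells it gave 25 (7.29 and 11.2%) and 6 (1.75 and 19.4%). The label H3K27ac gave 2179 higher (47.9 and 67.7%) and 13 lower (0.286 and 0.851%) than ESCs. It gave 348 higher than differentiated cells (7.64 and 23.2%), and XEN counts gave 81 lower (1.08 and 17.4%). Requiring coverage of 50% of the region gave a median of 11.3 points. Between marks it gave 217 higher (5.94 and 23.0%) and 138 lower (3.78 and 3.59%) in ESCs. In differentiated cells 70 were lower (1.99 and 1.49%). The XEN label H3K4me1 gave 202 higher than ESCs (44.4 and 51.1%) and 27 higher than differentiated cells (5.95 and 11.2%). XEN counts gave 58 lower (0.656 and 17.4%), and the pooled XEN difference was 6.54 points.

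In this paragraph, brackets hold the share of regions tested and then that of all peaks under the same setting. A minimum of 20 counts gave 655 higher than ESCs (39.2 and 46.8%) for the XEN label H3K4me1. Against differentiated cells it gave 83 higher (4.97 and 9.00%) and 19 lower (1.14 and 15.5%). For that label a minimum of 60 gave 80 higher (80 and 53.9%) and 2 lower (2 and 15.7%) than ESCs. Against differentiated cells it gave 18 higher (18.6 and 15.3%) and 3 lower (3.09 and 27.3%). The label H3K27ac gave 17 lower than ESCs (0.442 and 0.874%). Between marks 99 were lower in ESCs (5.09 and 4.33%). In differentiated cells 342 were higher (28.3 and 46.8%) and 36 lower (2.98 and 1.76%). Bins wholly inside the peak gave 159 lower between marks in ESCs (3.11 and 3.19%). The XEN label H3K4me1 gave 2 lower than ESCs (0.362 and 7.53%) and 4 lower than differentiated cells (0.735 and 13.7%). The label H3K27ac gave 11 lower than differentiated cells (0.171 and 0.280%). For H3K4me1 in differentiated cells against ESCs, bins of at least 30 counts gave 2227 higher (40.6 and 61.9%) and 97 lower (1.77 and 2.01%). The median was 11.3 points. Bins listed in the 3 libraries compared were added after the data were seen. The label H3K4me1 then gave 209 higher (51.7 and 51.3%) and 2 lower (0.495 and 5.29%) than ESCs. Against differentiated cells it gave 24 higher (6.30 and 10.8%) and 5 lower (1.31 and 12.7%). The label H3K27ac gave 7 lower than differentiated cells (0.107 and 0.137%).

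With 1 XEN replicate left out, the label H3K4me1 gave 554 to 1198 higher and 12 to 27 lower than ESCs, and 138 to 301 and 32 to 68 against differentiated cells. The label H3K27ac gave 4292 to 5474 and 72 to 81, and 1036 to 1325 and 113 to 117. Shares of the higher calls are given in the results above. For the label H3K4me1, lower calls were 1.29 and 1.34% for ESCs, against 13.5 and 11.6% of all peaks. For differentiated cells they were 3.46 and 3.39%, against 22.7 and 19.7%. For the label H3K27ac they were 0.974 and 0.858%, against 1.47 and 1.28%, and 1.20 and 1.58%, against 1.11 and 1.38%. XEN counts gave 895 to 5262 higher and 53 to 272 lower, and a lone library was assumed to vary like the others. The pooled XEN difference ran from 7.57 to 8.49 points, and was 0.491 in bins listed in all 4 files. XEN counts lower in the label H3K27ac were 131 without TMM (1.08%, against 13.3% of all peaks) and 381 with DESeq2 (3.14%, against 22.3%). With bins listed in all 4 files 872 were higher (22.1%, against 20.8%).

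The replicate number was tried as a block. Replicate differences of the XEN labels correlated at 0.00734 over 94888 peaks, so the numbers are shared by name only. The replicate block gave 1637 regions higher and 81 lower, against 2954 and 201 without it. Higher calls were then 13.5% of regions and 11.4% of all peaks, against 24.4 and 17.0%. The block gave a pooled difference of 8.03 points (8.77 and 7.29 within the numbers).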
